A study of Mus musculus with 39 samples.

Results

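Respiratory complex I (NADH:ubiquinone oxidoreductase) is the entry point of the mitochondrial electron transport chain, and the genes described here are the ones in the nuclear genome that encode its subunits. They were taken from the count tables by symbol: Nduf followed by a, b, c, s or v and a number, or Ndufab1, without assembly factors (Ndufaf), pseudogenes (-ps) and antisense genes. This gave 43 of the 46333 genes of the female table and 41 of the 54532 genes of the male table. All 41 symbols of the male table were also in the female table, which further lists Ndufb1 and Ndufb4b. Of these genes, 37 to 39 passed the expression filter in any one comparison.

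The libraries were mRNA-seq of CD11b+ cells that had been isolated with magnetic beads from the cerebrum of wild-type (WT) and 5XFAD mice. 5XFAD mice carry human transgenes with familial Alzheimer's disease mutations under the neuronal Thy1 promoter and deposit amyloid plaques. From 4 months of age the mice were kept in normoxia (NX, 21% oxygen) or in chronic intermittent hypoxia (CIH), a model of obstructive sleep apnea, in which oxygen fell to 6.5% in intervals of 90 s for 8 h per day according to the labels; the methods of the study give another oxygen level and daily length. Females were exposed for 6 months and were 10 months old at harvest, males for 4 months and 8 months old, so sex cannot be told apart from age, length of exposure and gene annotation. In each sex the 2 genotypes and 2 conditions gave 4 groups with 5 libraries each, except 4 in female WT NX, and the study describes them as independent samples.

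Complex I oxidizes NADH, passes the electrons through a flavin and a chain of iron-sulfur clusters to ubiquinone, and pumps protons across the inner mitochondrial membrane. The electron path lies in the peripheral arm, which reaches into the matrix, and the proton path in the membrane arm. The core subunits carry out these reactions and are shared with bacteria. The nuclear genome encodes the core subunits of the peripheral arm, mitochondrial DNA encodes those of the membrane arm (mt-Nd genes), and the accessory subunits, all nuclear, surround the core and are needed for its assembly and stability. In microglia, the resident macrophages of the brain, oxidative phosphorylation supplies much of the ATP at rest, and activated cells shift part of their metabolism toward glycolysis. The genes were grouped as 7 core subunits (Ndufs1, Ndufs8 and Ndufv1 among them), accessory subunits of the peripheral arm, of the proximal membrane arm and of the distal membrane arm, and the acyl carrier protein Ndufab1. Ndufa4, now assigned to complex IV (cytochrome c oxidase), was kept because its symbol fits the rule.

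Library depth ranged from 14731683 to 25906121 counts in females and from 13457293 to 23095627 counts in males. The 10 microglial markers (Cx3cr1, P2ry12, Tmem119 and others) summed to 27010 to 40160 CPM (counts scaled to a common library size with factors from the trimmed mean of M values, TMM), against 6.86 to 34.5 CPM for 10 neuronal markers. Summed over 8 astrocyte markers, of which 7 or 8 exceeded 1 CPM in a library of each group, levels ranged from 134 to 226.5 CPM in WT libraries of both sexes, from 140 to 369 in female 5XFAD NX, from 232 to 666 in female 5XFAD CIH, from 383 to 1046 in male 5XFAD NX and from 226 to 632 in male 5XFAD CIH. Their part in the genotype differences below was not tested. Border macrophage markers moved the other way, with 142.5 to 332 CPM in WT and 68.3 to 189 CPM in 5XFAD libraries. Over all libraries, summed oligodendrocyte markers ranged from 142.1 to 599.7 CPM, endothelial markers from 46.95 to 278.5 CPM and erythroid markers from 2.40 to 234.4 CPM. In these bulk libraries, fewer cells of a type and less RNA per cell cannot be told apart.

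A few libraries stood apart. The library labelled F 5XFAD NX 4 held 16.4 CPM of Cst7, a gene that microglia turn on near plaques, against 1150 to 2460 CPM in the other 4 libraries of its group and 7.75 to 17.3 CPM in the 9 female WT libraries. It was the lowest of its group for 39 of 39 complex I genes and lay below every female WT library for 34 of them. The library labelled F WT NX 1 held 760 CPM of Gpnmb, against 0.997, 1.04 and 1.48 CPM in the other 3 libraries of its group. In male 5XFAD NX, libraries 4 and 5 lay below the other 3 libraries for 35 of 39 complex I genes. They were also the lowest of the group for Cst7, at 1850 and 1870 CPM against 2960 to 3730 CPM in the other 3. M 5XFAD CIH 5 was the highest of its group for 38 of 39 genes. These ranks were counted in the complex I genes only, and the shares over all genes were not determined.

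Averaged over the 39 genes that passed the filter across all groups of a sex, the mean log2 CPM of WT females was 4.35 ± 0.159 under NX (SD, n = 4) and 4.26 ± 0.135 under CIH (n = 5). Female 5XFAD libraries averaged 4.60 ± 0.405 under NX and 4.80 ± 0.212 under CIH (n = 5 each). The male averages were 4.73 ± 0.273 and 4.28 ± 0.0302 for WT under NX and CIH, and 5.04 ± 0.553 and 5.29 ± 0.439 for 5XFAD (n = 5 each). The 5 male WT CIH libraries lay within 4.23 to 4.31, and those of 5XFAD NX spread from 4.34 to 5.49. WT CIH had the lowest group mean for 31 of 39 genes in females and 35 of 39 in males, and 5XFAD CIH the highest for 38 and 33. The order WT CIH, WT NX, 5XFAD NX, 5XFAD CIH, from low to high, held for 24 of 39 genes in females and 32 of 39 in males. How often all genes follow these orders was not determined. Of the neighbours in the order from WT CIH to 5XFAD CIH, the tests below separated WT CIH from WT NX in males for 24 genes. They separated WT NX from 5XFAD NX in males for 1 gene, and did not separate 5XFAD NX from 5XFAD CIH for any gene in either sex.

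**Figure D1:**
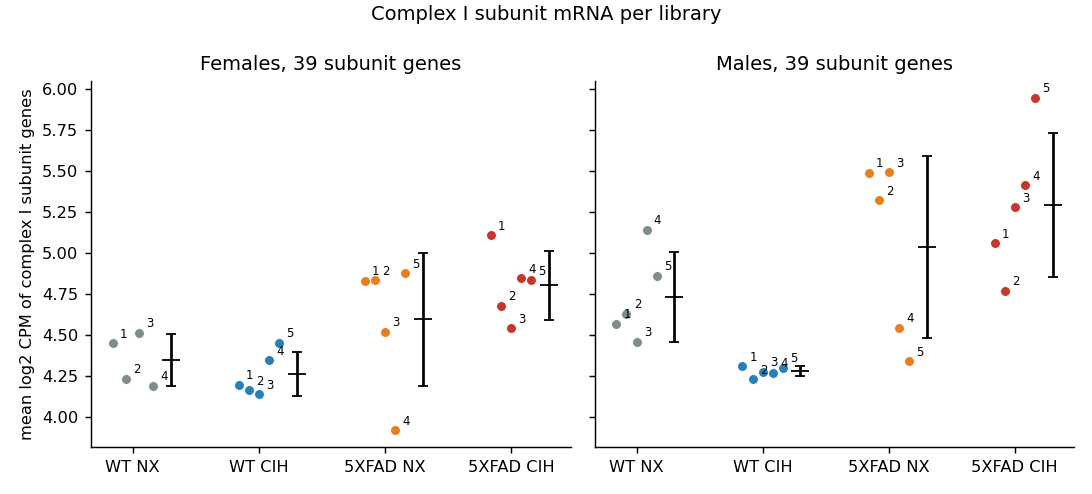
Mean log2 CPM (TMM) of 39 complex I subunit genes in each library (numbered points; y axis, log2 scale) by group, females left and males right, with group mean and SD (bars). Female 5XFAD NX 4 is the lowest female library (3.92), male 5XFAD NX 4 and 5 (4.54 and 4.34) lie below the other 3 of their group (5.32 to 5.49), and the 5 male WT CIH libraries lie within 4.23 to 4.31.

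Levels between genes were compared per length, as fragments scaled by gene length and library total (FPKM). In female WT NX the highest group means were those of Ndufa4 (63.5 ± 9.44 FPKM, SD, n = 4) and Ndufa3, a small subunit of the proximal membrane arm (57.5 ± 9.84). Apart from the copies and paralogs (Ndufa4l2, Ndufa11b, Ndufb4b, Ndufb4c and Ndufs6b), all of which were lower, Ndufa11 was lowest at 7.04 ± 1.28 FPKM. In male WT NX, Ndufs8, a core subunit that holds a pair of iron-sulfur clusters of the electron path, was highest at 73.9 ± 10.4 FPKM (n = 5), followed by Ndufa2 at 62.3 ± 21.7. With the copies and paralogs again left aside, the lowest were Ndufb2 at 1.06 ± 0.073 and Ndufab1 at 4.63 ± 0.499 FPKM. The lengths behind the FPKM differ between the sexes, and FPKM values were therefore not compared between them. Ndufb2 has 888 bp in females and 5628 bp in males, and Ndufab1 971 and 6883 bp. Only the male table lists a length, and female lengths were derived from counts and FPKM.

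The paralogs and copies were close to zero. Ndufa4l2, a paralog of Ndufa4 that is induced by hypoxia-inducible factor, reached 0.845 CPM in females and 2.12 CPM in males. Its male means were 0.970 ± 1.04 and 0.491 ± 0.277 CPM for WT under NX and CIH, and 0.327 ± 0.236 and 0.535 ± 0.680 CPM for 5XFAD (SD, n = 5), and the libraries of all groups overlapped. It passed the filter only when all male groups were fitted together. Ndufa11b, Ndufs6b and the female-table gene Ndufb4b passed the filter in no comparison, and Ndufb4c passed it in some.

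The promoters were looked at because most of these genes moved together. RefSeq (GRCm38.p6) promoter sequences were matched for 35 of the 43 symbols, and the 250 bases before each start were searched on both strands. The other 8, among them Ndufa2, Ndufa4l2, Ndufb9 and Ndufs1, had no entry. The binding word of NRF1, a regulator of nuclear genes for mitochondrial proteins (GCGCANGCG), was found in 6 of 35 (17.1%), against 5.86% of 27025 genes: Ndufa5, Ndufa8, Ndufa11, Ndufb4, Ndufs5 and Ndufs6. The ETS word of GABP (CCGGAAGT) was found in 0 of 35 (3.23% of all genes), the YY1 word (AAGATGGC) in 0 (1.83%), TATAAA in 4 (11.4%, against 14.3%) and CCAAT in 10 (28.6%, against 37.5%). A match is a description of these letters and not a site. Printed here are 3 windows without annotated exon bases, in which capitals mark the NRF1 word and CCAAT on either strand: Ndufb4, with an NRF1 word and a called difference in both sexes, at chr16:37654454-37654618 (minus strand), Ndufb2, called higher under CIH in 5XFAD females and not in males, where its fold change was negative, at chr6:39592315-39592564 (plus strand), and Ndufs8, the core subunit called in all 3 comparisons that called many subunit genes, at chr19:3912775-3913024 (minus strand). These were chosen after their values were seen.
Ndufb4: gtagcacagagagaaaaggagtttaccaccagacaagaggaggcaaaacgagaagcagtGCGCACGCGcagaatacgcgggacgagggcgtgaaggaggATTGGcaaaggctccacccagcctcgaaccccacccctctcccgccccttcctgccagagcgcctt
Ndufb2: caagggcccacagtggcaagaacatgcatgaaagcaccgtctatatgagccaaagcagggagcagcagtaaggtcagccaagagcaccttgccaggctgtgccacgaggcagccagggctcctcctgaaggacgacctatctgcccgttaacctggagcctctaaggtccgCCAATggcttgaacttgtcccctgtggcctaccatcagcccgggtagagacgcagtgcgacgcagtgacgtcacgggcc
Ndufs8: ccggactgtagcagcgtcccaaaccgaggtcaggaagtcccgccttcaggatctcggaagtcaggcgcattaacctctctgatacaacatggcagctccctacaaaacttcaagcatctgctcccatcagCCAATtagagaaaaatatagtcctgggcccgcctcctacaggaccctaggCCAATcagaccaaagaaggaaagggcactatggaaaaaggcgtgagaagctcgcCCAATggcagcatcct

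The study asked how CIH and amyloid pathology together change microglia. In the fits made here, the comparison of genotypes under CIH called the most complex I genes. In females exposed to CIH, 29 of 38 complex I genes tested were higher in 5XFAD than in WT and 0 were lower (edgeR quasi-likelihood test, Benjamini-Hochberg FDR below 0.05), where 26.2% of all genes tested were called higher. All 38 fold changes were positive, with a median log2 fold change (log2FC) of 0.57, against -0.02 over all genes. The accessory subunits made up most of the calls: 8 of 9 of the peripheral arm (median 0.65), 8 of 9 of the proximal membrane arm (0.66) and 11 of 11 of the distal membrane arm (0.63). Of the core subunits only Ndufs8 was called, and their median was 0.16. The 9 genes not called were 6 core subunits, Ndufs1 and Ndufv1 among them, and Ndufs4, Ndufc2 and Ndufab1. For 20 of the 38 genes every 5XFAD library was above every WT library (18.8% of all genes). With the study's added limit of an absolute log2FC above 1, 2 genes remained, Ndufa1 and Ndufa2 (8.83% of all genes). In the same libraries the summed endothelial markers were higher in 5XFAD CIH (152.8 to 226.8 CPM) than in WT CIH (46.95 to 130.2 CPM). The summed microglial markers were lower (29370 to 32530 against 32550 to 37660 CPM). Astrocyte markers were higher (232.1 to 666.0 against 160.2 to 200.3 CPM) and border macrophage markers lower (68.28 to 128.3 against 142.5 to 300.3 CPM). None of these 4 sums overlapped between the groups. All 6 endothelial, 10 microglial, 8 astrocyte and 7 border macrophage markers exceeded 1 CPM in a library of each group. The part of these lists in the difference was not tested.

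Ndufa1 (chrX:37187588-37191163 on GRCm38), a small subunit of the proximal membrane arm, needed for assembly, showed the largest difference. In female WT CIH it was at 6.43, 7.37, 7.87, 8.07 and 10.5 CPM, and in 5XFAD CIH at 53.1, 30.8, 28.4, 35.9 and 32.9 CPM. The groups were far apart, and the lowest 5XFAD library was above the highest WT library. The log2FC was 2.18 ± 0.177 (SE; 4.54-fold, adjusted p = 3.96e-07, edgeR).

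Ndufb5 (chr3:32736990-32751566), of the distal membrane arm, followed by adjusted p. It was at 19.8, 22.0, 20.8, 19.8 and 22.6 CPM in WT CIH and at 40.2, 28.7, 33.3, 36.3 and 39.3 CPM in 5XFAD CIH. All 5XFAD libraries were above all WT libraries, and the log2FC was 0.77 ± 0.0937 (1.71-fold, adjusted p = 1.58e-05, edgeR). In the annotation of the male table, 12.3% of its exon bases overlap those of Mrpl47 on the other strand, and strand use in the counting was not given in the sources used here.

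The catalytic subunits differed less. Ndufv1, which binds NADH and the flavin, was at 51.4, 48.4, 49.6, 52.4 and 48.8 CPM in female WT CIH and at 58.8, 56.9, 48.7, 54.5 and 52.4 CPM in 5XFAD CIH. The groups overlapped, and the log2FC of 0.13 ± 0.0594 was not called (adjusted p = 0.0851, edgeR). Ndufs1, the largest core subunit, which holds iron-sulfur clusters of the electron path, was at 51.2, 44.1, 41.6, 48.3 and 48.1 CPM in WT CIH and at 49.0, 44.3, 50, 56.7 and 56.3 CPM in 5XFAD CIH, with overlapping groups and a log2FC of 0.15 ± 0.0800 (adjusted p = 0.133). Ndufa4 was at 25.3, 27, 26.2, 31.0 and 30.1 CPM in WT CIH and at 41.7, 30.3, 30.5, 32.3 and 34.5 CPM in 5XFAD CIH. Its groups overlapped as well, with a log2FC of 0.29 ± 0.0966 (adjusted p = 0.022). The call of Ndufa4 was lost without F WT CIH 1 (0.26, adjusted p = 0.0535), in one fit over all female groups (0.28, adjusted p = 0.0547) and with library size in place of TMM (0.10, adjusted p = 0.362), and its direction turned with the length trend taken out (-0.19, adjusted p = 0.0301).

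In males exposed to CIH, 34 of 37 genes tested were higher in 5XFAD than in WT and 0 were lower, where 25.3% of all genes tested were called higher (edgeR). The median log2FC was 1.19, against -0.06 over all genes. Called were 9 of 9 accessory subunits of the peripheral arm (median 1.48), 9 of 9 of the proximal membrane arm (1.46), 9 of 10 of the distal membrane arm (1.24) and 6 of 7 core subunits (0.63). Every 5XFAD library was above every WT library for 31 genes (19.4% of all genes), and 23 genes passed the limit of an absolute log2FC above 1 (11.8% of all genes). The genes not called were Ndufs1, Ndufab1 and Ndufb2. Summed astrocyte markers were at 156.7 to 225.6 CPM in WT CIH and at 225.7 to 631.9 CPM in 5XFAD CIH. These sums were just without overlap, and their part in the difference was not tested.

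Ndufa1 again had the largest fold change. It was at 11.9, 11.2, 12.3, 10.7 and 10.8 CPM in male WT CIH and at 68.5, 39.3, 66.6, 80.1 and 160 CPM in 5XFAD CIH. The WT libraries were close together, the 5XFAD libraries differed among themselves, and the groups did not overlap. The log2FC was 2.87 ± 0.283 (7.32-fold, adjusted p = 1.61e-06, edgeR).

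Ndufa13 (chr8:69894180-69902558), a proximal membrane arm subunit also known as a cell death regulator, had the next smallest adjusted p. It was at 32.5, 31.4, 30.3, 30.9 and 26.9 CPM in WT CIH and at 66.9, 59.9, 89.1, 95.4 and 139 CPM in 5XFAD CIH. The groups did not overlap, and the log2FC was 1.57 ± 0.183 (2.98-fold, adjusted p = 8.05e-06, edgeR). In the annotation, 30% of its exon bases overlap Tssk6 on the other strand. Over more than 10% of exon bases were shared with another gene for 6 of the 41 members, of which 5 overlap a gene on the opposite strand (Ndufa13, Ndufb6, Ndufb11, Ndufb5 and Ndufa2) and Ndufb9 a gene on its own strand.

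Ndufv1 (chr19:4007497-4012806) was at 53.1, 50.5, 54.7, 52.5 and 58.0 CPM in male WT CIH and at 62.0, 58.5, 69.9, 69.0 and 80.8 CPM in 5XFAD CIH. The lowest 5XFAD library was just above the highest WT library, with a log2FC of 0.35 ± 0.098 (1.27-fold, adjusted p = 0.00891, edgeR). The call was lost with the length trend taken out (0.18, adjusted p = 0.0597) and in one fit over all male groups (0.34, adjusted p = 0.0726), and the direction turned with library size in place of TMM (-0.03). Ndufa4 was at 28.7, 30.9, 34.0, 33.5 and 38.9 CPM in WT CIH and at 59.8, 46.5, 63.4, 83.5 and 105 CPM in 5XFAD CIH. Those groups did not overlap, and the log2FC was 1.12 ± 0.179 (adjusted p = 0.000141).

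The 3 genes not called in males were level or lower in 5XFAD. Ndufs1 (chr1:63143596-63176833) was at 47.6, 50.8, 54.1, 57.7 and 52.1 CPM in WT CIH and at 42.4, 46.9, 52.5, 45.3 and 55.8 CPM in 5XFAD CIH, with a log2FC of -0.10 ± 0.0984 (adjusted p = 0.414, edgeR). Ndufb2, of the distal membrane arm, was at 5.69, 6.80, 6.67, 9.58 and 7.21 CPM in WT CIH and at 4.17, 2.69, 4.87, 5.78 and 7.52 CPM in 5XFAD CIH, with a log2FC of -0.51 ± 0.251 (adjusted p = 0.106). Ndufab1, the mitochondrial acyl carrier protein, which also serves fatty acid synthesis, had a log2FC of -0.12 ± 0.131 (adjusted p = 0.478). The groups overlapped for all 3. These are the 3 longest members of the male table, at 8086 bp (Ndufs1), 6883 bp (Ndufab1) and 5628 bp (Ndufb2). In females, where its length is 888 bp, Ndufb2 was higher in 5XFAD CIH (0.98 ± 0.169, adjusted p = 0.000326), at 7.68, 6.95, 6.85, 6.99 and 10.3 CPM in WT and 20.8, 12.3, 11.6, 16.1 and 14.8 CPM in 5XFAD. The difference between the sexes was not tested, since the tables use different annotations.

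**Figure D2:**
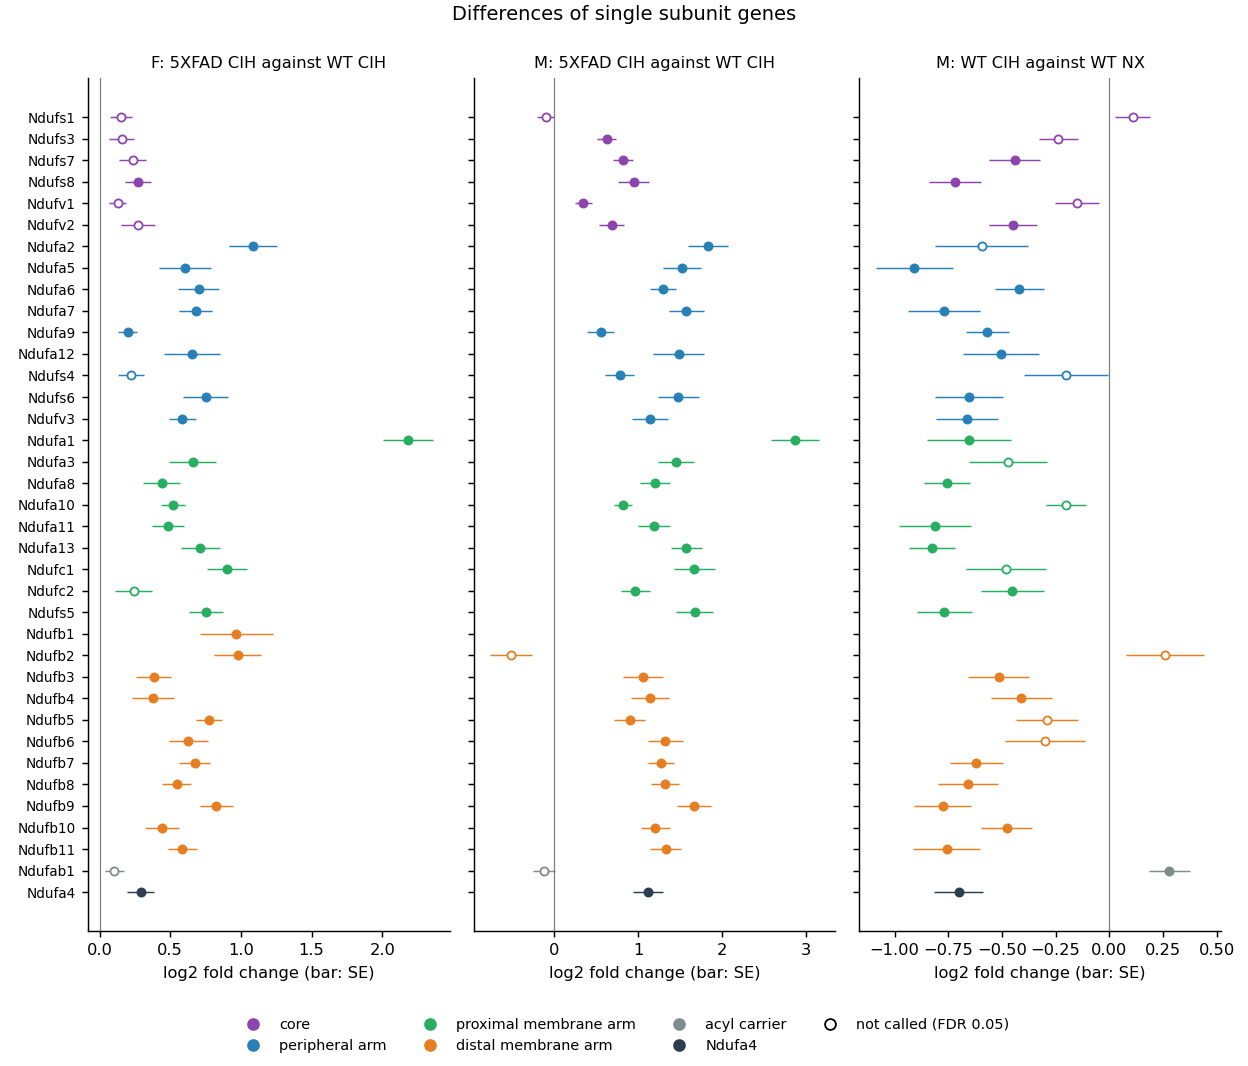
Log2 fold change of single complex I genes (rows, colored by position in the complex) with its SE (bars) for 5XFAD against WT under CIH in females (left) and males (middle) and for CIH against WT NX in male WT (right). Filled points were called at FDR below 0.05 (edgeR). Ndufa1 has the largest genotype fold changes (2.18 and 2.87), and the core subunits at the top have a smaller median (0.16 and 0.63) than the accessory subunits below them. Most core subunits are also longer than the median member, and the part of length in this was not tested.

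Between the sexes, 37 genes were tested under CIH in both. Of these, 28 were called higher in females and 34 in males, and 27 in both, which is 96.4% of the female and 79.4% of the male calls. The remaining female call, Ndufb1, has no row under that symbol in the male table, and Ndufb1-ps is described at the end. The log2FC was larger in males for 34 of the 37. Whether the genotype difference itself differs between the sexes was not tested.

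The genotype differences under CIH moved with gene length. Across the complex I genes, Spearman's rho between log2FC and gene length (derived from FPKM in females) was -0.589 in females (n = 38) and -0.659 in males (n = 37), against -0.057 and -0.226 across all genes. Genes share libraries, so these are descriptions. The members are short, with a median of 824 bp in the female table (2992 bp for all genes tested) and 1569 bp in the male table (3968 bp). After the trend of fold change on length over all genes had been taken out, 20 genes were called higher, Ndufs1 now among them (0.19), and 1 lower (Ndufa4, -0.19) in females, with a median of 0.25, where 27.8% of all genes were called higher. In males 29 were then called higher and 0 lower, with a median of 0.68, where 25.0% of all genes were called higher. Among these were 2 of 7 core subunits in females and 4 of 7 in males. In females, accessory calls were 5 of 9 of the peripheral arm, 6 of 9 of the proximal and 7 of 11 of the distal membrane arm. In males they were 8 of 9, 8 of 9 and 8 of 10. Most core subunits are longer than the median member. The part of length in their smaller fold changes was not tested. Ndufa1 stayed at 1.69 in females and 1.99 in males.

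**Figure D3:**
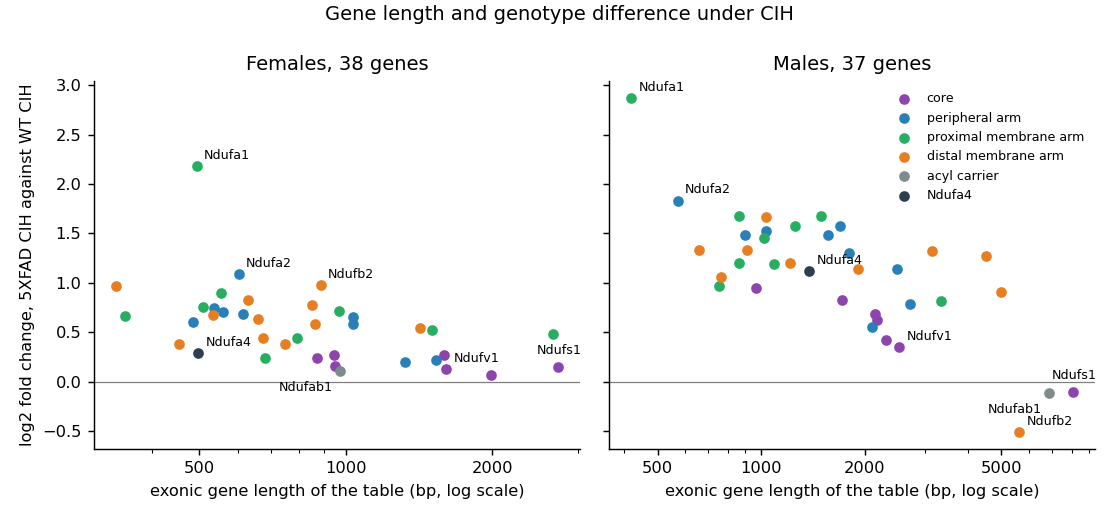
Log2 fold change of 5XFAD against WT under CIH (y axis) against the length of each complex I gene (x axis, bp, log scale), females left and males right, colored by position in the complex. Lengths are listed in the male table and derived from FPKM in females. Longer genes have smaller fold changes in both sexes (Spearman's rho -0.589 and -0.659), and the 3 longest genes in males, Ndufs1, Ndufab1 and Ndufb2, are the 3 below zero.

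Scaling mattered too. With library size in place of TMM, the median of all genes under CIH moved to -0.21 in females and -0.43 in males. In females 20 complex I genes were then called higher and 1 lower, with a median of 0.37, where 17.5% of all genes were called higher and 42.2% lower. In males 29 were called higher and 3 lower (Ndufs1 at -0.48, Ndufab1 at -0.50 and Ndufb2 at -0.91), with a median of 0.79, where 15.0% of all genes were called higher and 45.8% lower. Of the core subunits, 1 was then lower and 6 were not called in females. In males 2 core subunits were higher, 1 was lower and 4 were not called.

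Under NX the number of calls between the female genotypes depended on 1 library. With all libraries, 0 of 38 genes were called (edgeR), where 7.26% of all genes were called higher. Of these 38, 32 fold changes were positive, the median was 0.24 and 4 genes had an unadjusted p below 0.05, against 34.1% of all genes. That median was 0.05 with library size in place of TMM and 0.05 with the length trend taken out. It was 0.04 and 0.05 with limma on log2(FPKM + 1) and log2(FPKM + 0.1), and 0.13 with the replicate block. DESeq2 called 2 higher (13.3% of all genes), and one fit over all female groups called 4 (16.3% of all genes). The likelihood ratio test and the fit with no filter on low counts called 1 each (10.3% and 2.44% of all genes). Without the library labelled F 5XFAD NX 4, 22 genes were higher in 5XFAD NX (21.8% of all genes) and the median was 0.38: 11 of the distal membrane arm, 6 of the proximal membrane arm, 5 of the peripheral arm and 0 core subunits. All 22 were among the 29 called under CIH (75.9% of those). Ndufa1 was at 11.6, 9.84, 11.4 and 8.53 CPM in WT NX and at 32.9, 36.1, 23.4, 5.88 and 45.1 CPM in 5XFAD NX. The library at 5.88 CPM is the fourth, and the other 4 were above every WT library. With it the log2FC was 1.46 ± 0.449 (adjusted p = 0.0555, edgeR) and without it 1.72 ± 0.188 (adjusted p = 0.000102). The summed microglial markers were lower in 5XFAD NX (28550 to 33750 CPM) than in WT NX (33860 to 36870 CPM), and their part was not tested.

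Ndufv1, Ndufs1 and Ndufa4 were not called between the female genotypes under NX, with or without that library. Ndufv1 was at 51.3, 51.8, 50.3 and 51.6 CPM in WT NX and at 54.9, 54.0, 53.6, 45.9 and 53.5 CPM in 5XFAD NX. The fourth 5XFAD library was below the WT libraries and the other 4 were above them. With all libraries the log2FC was 0.03 ± 0.0688 for Ndufv1 (adjusted p = 0.772, edgeR), -0.04 ± 0.0749 for Ndufs1 (0.701) and 0.03 ± 0.131 for Ndufa4 (0.904). Without that library, the log2FC was 0.07 for Ndufv1 (adjusted p = 0.358, edgeR), -0.02 for Ndufs1 (0.817) and 0.10 for Ndufa4 (0.494).

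In males under NX, 1 of 38 genes was called, Ndufa1, where 10.4% of all genes were called higher. Ndufa1 was at 14.7, 15.9, 10.6, 25.5 and 23.1 CPM in WT NX and at 63.4, 66.2, 103, 39.0 and 32.6 CPM in 5XFAD NX. Libraries 4 and 5 were the lowest of the 5XFAD group, yet above every WT library. The log2FC was 1.76 ± 0.317 (3.39-fold, adjusted p = 0.00191, edgeR). Over the 38 genes the median was 0.34, 35 fold changes were positive and 9 had an unadjusted p below 0.05, against 29.9% of all genes. With library size in place of TMM the median was 0.10. Without M 5XFAD NX 4, 6 genes were called (11.0% of all genes), and without M 5XFAD NX 5, 8 genes (11.5% of all genes). Other fits called 2 to 6 genes, at shares near or below those of all genes: 2 with no filter on low counts (4.67% of all genes), 2 with at least 10 counts in every library (12.1%), 4 with the likelihood ratio test (12.2%), 4 with DESeq2 (13.4%), 5 with one fit over all male groups (14.1%) and 6 with the length trend taken out (12.6%). The summed microglial markers were again lower in 5XFAD NX (27010 to 37510 CPM) than in WT NX (38070 to 40160 CPM), and their part was not tested. With all libraries, Ndufv1 was at 56.8, 66.7, 46.0, 61.9 and 67.6 CPM in WT NX and at 83.8, 65.1, 77.9, 45.2 and 49.0 CPM in 5XFAD NX, and the groups overlapped (0.10 ± 0.181, adjusted p = 0.769). Ndufa4 also overlapped (0.10 ± 0.240, adjusted p = 0.848). Ndufs1 was at 47.4, 50.9, 49.2, 45.1 and 50.2 CPM in WT NX and at 54.3, 56.2, 51.7, 53.8 and 51.5 CPM in 5XFAD NX. All 5XFAD libraries were above all WT libraries for Ndufs1, but the difference was small and not called (0.14 ± 0.0948, adjusted p = 0.366).

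Malat1, a long noncoding RNA retained in the nucleus and was looked at after the values were seen. It was at 194, 145, 139, 1640 and 1420 CPM in male 5XFAD NX, so the same libraries 4 and 5 stood apart. In male 5XFAD CIH it was at 455, 523, 306, 237 and 124 CPM, with the lowest value in library 5, where the complex I genes were highest. It ranged from 319 to 923 CPM in male WT NX and from 862 to 1340 CPM in male WT CIH. Between the male genotypes it was lower in 5XFAD under CIH (-1.76 ± 0.296, adjusted p = 0.000221, edgeR), where the complex I genes were higher, and was not called under NX (0.45 ± 0.670, adjusted p = 0.727). In females it ranged from 796 to 1630 CPM over all libraries and was lower in 5XFAD CIH than in WT CIH (-0.41 ± 0.159, adjusted p = 0.0477). What sets this, and its part in the differences of the complex I genes, was not tested.

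**Figure D4:**
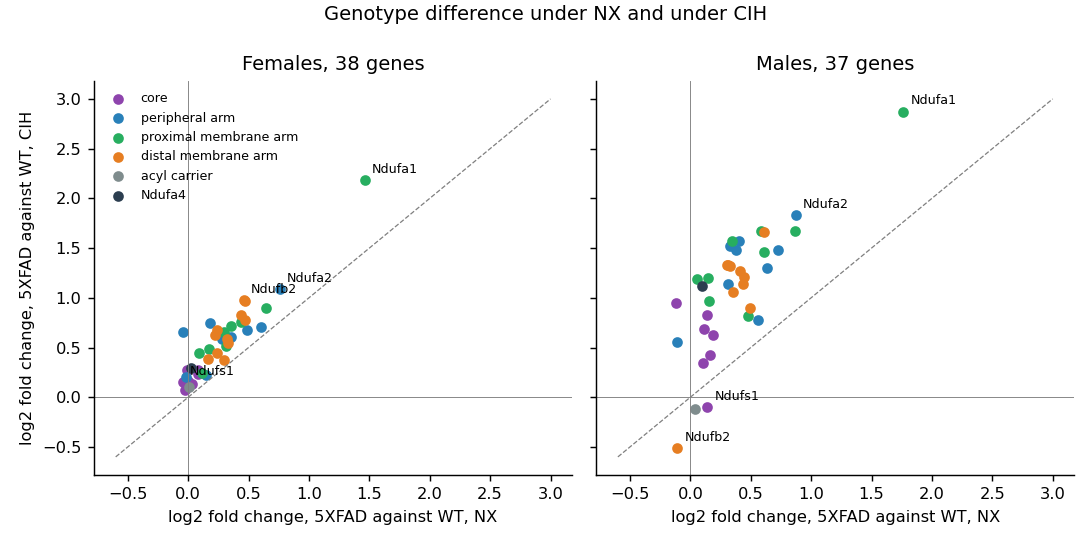
Log2 fold change of 5XFAD against WT under NX (x axis) and under CIH (y axis) for each complex I gene tested in both, females left and males right, with the line of equal values (dashed). Most genes lie above the line, and Ndufa1 is farthest from zero under both conditions (1.46 and 2.18 in females, 1.76 and 2.87 in males).

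The interaction term tested whether the genotype difference under CIH differs from that under NX. In females 0 of 39 genes were called (edgeR; 0.0% of all genes), 1 had an unadjusted p below 0.05, and DESeq2 called 0. The median was 0.24 with F 5XFAD NX 4 and 0.13 without it. The female values were 0.25 ± 0.167 for Ndufa4, 0.18 ± 0.111 for Ndufs1 and 0.08 ± 0.0864 for Ndufv1 (adjusted p = 0.952 each). In males 36 of 39 interaction values were positive, with a median of 0.82 against -0.04 over all genes, but 0 were called (edgeR; 0.0% of all genes). An unadjusted p below 0.05 was reached by 23 of 39 genes and by 24.4% of all genes. Spearman's rho between the male interaction value and gene length was -0.669 across the complex I genes and -0.347 across all genes. DESeq2 called 10 higher (3.83% of all genes): Ndufa4, Ndufa5, Ndufa7, Ndufa8, Ndufa13, Ndufb8, Ndufb9, Ndufb11, Ndufs5 and Ndufs8. Without M 5XFAD NX 1, edgeR called 6 higher (3.25% of all genes), and with no filter on low counts it called 20 of 41 higher (2.28% of all genes). Whether the male genotype difference was called larger under CIH thus depended on the test, on the filter and on that library. The values were 1.23 ± 0.368 for Ndufa13 (adjusted p = 0.117, edgeR), 1.02 ± 0.322 for Ndufa4 (0.118), 0.24 ± 0.212 for Ndufv1 (0.497) and -0.25 ± 0.127 for Ndufs1 (0.226). Ndufa4l2 had an interaction value of 1.65 ± 1.54 (adjusted p = 0.521).

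In WT males, complex I genes differed between CIH and NX. Of 37 genes tested, 24 were lower in WT CIH than in WT NX (15.0% of all genes were called lower) and 1 was higher (13.6% of all genes were called higher), with a median log2FC of -0.50 against -0.01 over all genes. Called lower were 7 of 9 accessory subunits of the peripheral arm, 6 of 9 of the proximal and 7 of 10 of the distal membrane arm, 3 of 7 core subunits (Ndufs7, Ndufs8 and Ndufv2) and Ndufa4. Every CIH library was below every NX library for 17 genes (9.02% of all genes). None passed the limit of an absolute log2FC above 1 (0.881% of all genes were called lower under it), and 31 had an unadjusted p below 0.05, against 39.8% of all genes. DESeq2 called 25 lower (15.3% of all genes) and 1 higher (15.9% of all genes). When all 4 male groups were put in one fit, so that the spread of the 5XFAD groups entered, 0 complex I genes and 0 of all genes were called (edgeR), and 19 complex I genes had an unadjusted p below 0.05.

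Ndufa13 was at 46.6, 52.0, 49.1, 67.2 and 54.5 CPM in male WT NX and at 32.5, 31.4, 30.3, 30.9 and 26.9 CPM in WT CIH. The groups were apart, with a log2FC of -0.83 ± 0.106 (adjusted p = 0.000266, edgeR). Ndufa8 (chr2:36036326-36049406), a proximal membrane arm subunit that faces the intermembrane space, was at 34.9, 37.4, 39.6, 45 and 46.0 CPM in WT NX and at 26.7, 24.3, 25.4, 21.4 and 22.4 CPM in WT CIH. Its groups did not overlap either, and the log2FC was -0.76 ± 0.106 (adjusted p = 0.000302).

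Ndufa4 (chr6:11900292-11907497) was at 49.1, 50.1, 51.5, 68.1 and 51.3 CPM in male WT NX and at 28.7, 30.9, 34.0, 33.5 and 38.9 CPM in WT CIH, without overlap, with a log2FC of -0.70 ± 0.113 (adjusted p = 0.000589, edgeR). Ndufs8 (chr19:3908870-3912717), named after its values were seen, was at 67.3, 57.4, 76.8, 84.7 and 71.8 CPM in WT NX and at 52.5, 46.1, 42.5, 34.2 and 42.9 CPM in WT CIH, also without overlap (-0.72 ± 0.121, adjusted p = 0.000742). Ndufs1 and Ndufv1 were not called, with log2FC of 0.11 ± 0.0817 (adjusted p = 0.337) and -0.15 ± 0.102 (adjusted p = 0.285).

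Ndufab1 (chr7:122085403-122101886) went the other way. It was at 34.1, 29.1, 28.9, 37.2 and 31.0 CPM in WT NX and at 38.1, 39.0, 38.1, 39.4 and 40.1 CPM in WT CIH. Each CIH library was above each NX library, by little in the case of the fourth, and the log2FC was 0.28 ± 0.0944 (1.21-fold, adjusted p = 0.0357, edgeR). This call was lost in 7 of the 10 fits that left out 1 library (adjusted p = 0.0620 to 0.0799), those without M WT NX 2, 3 or 5 and without M WT CIH 2, 3, 4 or 5. It was also lost with the replicate block (0.29, adjusted p = 0.0655), no filter on low counts (0.31, 0.0672), limma on log2(FPKM + 1) (0.23, 0.0522), one fit over all male groups (0.28, 0.146) and the length trend taken out (0.13, 0.359).

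Length moved with this comparison too, with a Spearman's rho of 0.566 across the complex I genes and 0.362 across all genes. With the trend taken out, 14 genes were called lower (9.7% of all genes) and the median was -0.18. Malat1 was higher in WT CIH than in WT NX (1.11 ± 0.227, adjusted p = 0.00231, edgeR). Summed neutrophil markers, all 8 of which exceeded 1 CPM in a library, ranged from 235 to 1226 CPM in male WT NX and from 109 to 322 CPM in WT CIH. The summed microglial markers did not overlap, at 38070 to 40160 CPM in male WT NX and 30800 to 35420 CPM in WT CIH. The part of these in the fall of the complex I genes was not tested.

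**Figure D5:**
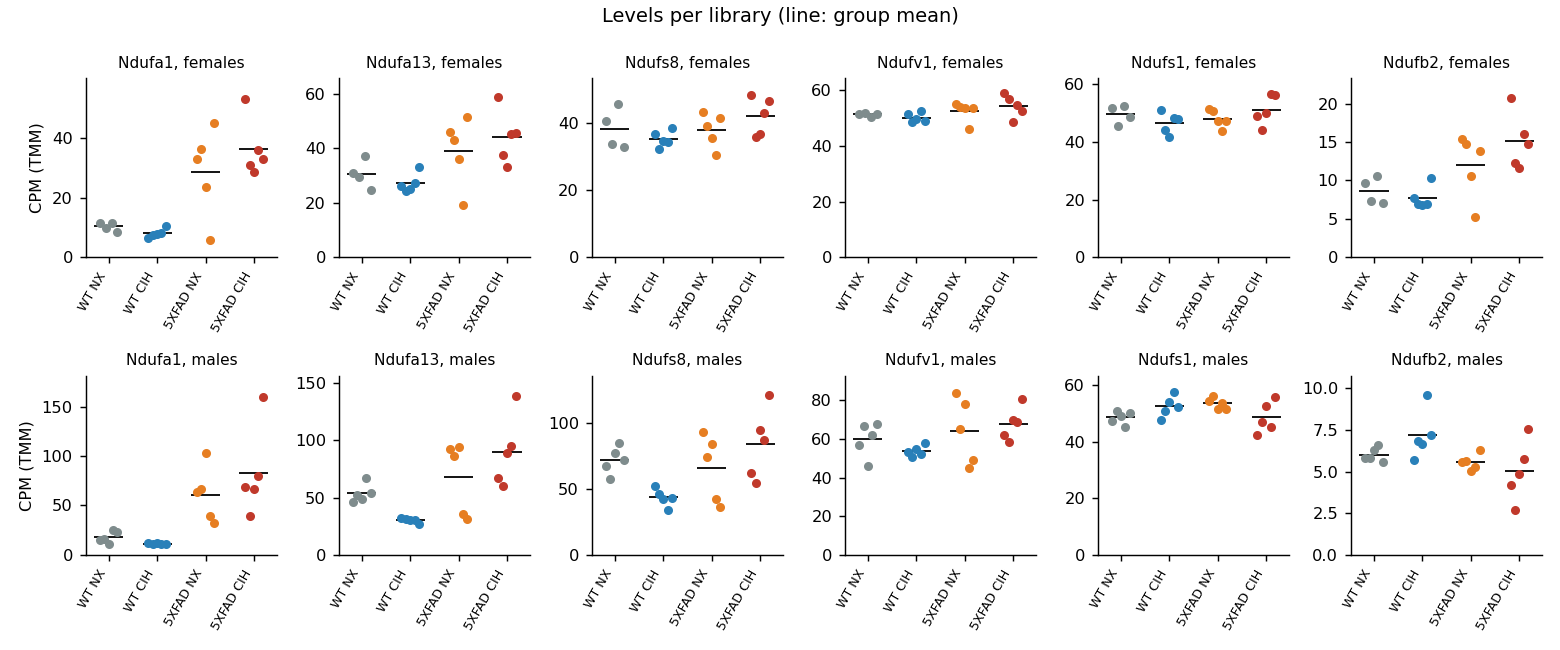
CPM (TMM, linear y axes from 0) of 6 complex I genes in each library by group, females above and males below, with group means (lines). Male WT CIH libraries lie close together for Ndufa13 (26.9 to 32.5) while male 5XFAD NX libraries spread from 31.8 to 94.1, Ndufs1 stays between 41.6 and 57.7 in all groups of both sexes, and Ndufb2 is higher in female 5XFAD CIH (11.6 to 20.8) but not in male 5XFAD CIH (2.69 to 7.52).

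In WT females no complex I gene was called under CIH: 0 of 38 passed (edgeR; 0.0% of all genes), 1 had an unadjusted p below 0.05, DESeq2 called 0, and the median was -0.07. That gene was Ndufa1, at 11.6, 9.84, 11.4 and 8.53 CPM in WT NX and at 6.43, 7.37, 7.87, 8.07 and 10.5 CPM in WT CIH, with overlapping groups and a log2FC of -0.37 ± 0.157 (adjusted p = 0.960). The log2FC was -0.10 ± 0.102 for Ndufa4, -0.09 ± 0.0685 for Ndufs1 and -0.03 ± 0.0469 for Ndufv1 (adjusted p = 0.960 each), with overlapping groups. The median was -0.04 without the library labelled F WT NX 1. Whether the male and female WT responses differ was not tested.

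In 5XFAD mice CIH was followed by no call in either sex. In females 0 of 39 genes were called (edgeR, 0.0% of all genes), and 0 genes had an unadjusted p below 0.05. The median was 0.18, which was 0.06 without F 5XFAD NX 4 and 0.08 with the length trend taken out. In males 0 of 38 were called (0.0% of all genes), with a median of 0.26 and 1 unadjusted p below 0.05. That median was 0.12 without M 5XFAD NX 4, 0.11 without M 5XFAD NX 5 and 0.09 without M 5XFAD CIH 5. Spearman's rho between log2FC and gene length was -0.484 in females and -0.527 in males, against -0.242 and -0.279 across all genes. DESeq2 called 0 in either sex. In females the log2FC was 0.16 ± 0.121 for Ndufa4, 0.10 ± 0.0835 for Ndufs1 and 0.06 ± 0.0759 for Ndufv1 (adjusted p = 0.998 each, edgeR). In males it was 0.31 ± 0.277 for Ndufa4, -0.14 ± 0.109 for Ndufs1 and 0.09 ± 0.173 for Ndufv1 (adjusted p = 0.994 each). The groups overlapped for all 3 in both sexes. The spread between the 5XFAD NX libraries was large, as in Ndufa13 in males at 92.8, 86.6, 94.1, 35.9 and 31.8 CPM under NX and 66.9, 59.9, 89.1, 95.4 and 139 CPM under CIH. Its log2FC was 0.40 ± 0.324 (SE; adjusted p = 0.994, edgeR), and the absence of a call does not show that its level stayed the same.

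Related genes were looked at for comparison. Of the 7 mitochondrially encoded subunits, which only the male table lists, 7 were higher in male 5XFAD than WT mice under CIH (median 1.37; 25.3% of all genes), 4 were lower in WT CIH than in WT NX (15.0%), and 3 were higher in 5XFAD NX than in WT NX (10.4%). mt-Nd1, which lies at the joint of the arms, was at 1110 to 1310 CPM in WT CIH and at 2120 to 4800 CPM in 5XFAD CIH, without overlap (1.37 ± 0.172, adjusted p = 1.65e-05, edgeR). It was at 1810 to 2700 CPM in WT NX (-0.85 ± 0.111 for CIH, adjusted p = 0.000266). Of 18 assembly factors tested, which build the complex but are not part of it, 1 was higher and 5 lower in female 5XFAD than WT under CIH, where 26.2% of all genes were called higher and 25.7% lower, so the share called lower was near that of all genes. The smallest adjusted p in each direction were those of Ndufaf8 (0.54 ± 0.117, adjusted p = 0.00175) and Ndufaf4 (-0.65 ± 0.0742, adjusted p = 9.52e-06). In males 6 were higher and 3 lower (25.3% and 23.7% of all genes), led by Ndufaf8 (1.67 ± 0.212, adjusted p = 1.83e-05) and Foxred1 (-0.33 ± 0.0987, adjusted p = 0.0117). In male WT mice 0 were higher and 5 lower under CIH (13.6% and 15.0% of all genes), led by Tmem70 (-0.39 ± 0.0991, adjusted p = 0.00851). Under NX, 1 assembly factor was lower in 5XFAD females (6.61% of all genes) and 2 in 5XFAD males (7.37% of all genes), and Ndufaf7 had the smallest adjusted p in both (-0.42 ± 0.0974 in females, adjusted p = 0.0288; -0.56 ± 0.126 in males, adjusted p = 0.00751). Of the regulators of mitochondrial biogenesis tested, such as Nrf1, Gabpa and Tfam, 1 of 10 was higher and 5 lower in CIH-exposed 5XFAD females than in WT, and 0 of 11 were higher and 4 lower in males, against the same shares of all genes (25.7% lower in females and 23.7% in males). Between the genotypes under NX, 0 of 10 were higher and 2 lower in females (7.26% and 6.61% of all genes) and 0 of 11 were called in males (10.4% higher and 7.37% lower of all genes). In WT males under CIH 1 of 11 was higher and 0 were lower (13.6% and 15.0% of all genes). These lists share no gene with the members.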

How the data were processed

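Gene counts were deposited by the authors as whole numbers without normalization, and FPKM values beside them. Per the labels and the study's methods, reads were aligned to GRCm38/mm10 with HISAT2, whose version, like the counting tool and its use of strand, was not given in the sources used here. The female tables list no gene length, so it was derived from the deposited counts, FPKM and library totals. It was the same in every library for well-counted genes. The male FPKM use the listed length and a scaled total. The members and lists were chosen with earlier results of these data known. Pairs of groups were fitted within a sex with edgeR 4.0.16 in R 4.3.3 (TMM, quasi-likelihood F test) after genes without a CPM above 1 in 3 or more of the libraries had been dropped, with Benjamini-Hochberg adjustment over all genes; calls are at FDR below 0.05. A positive log2FC means higher in the second group. The interaction used all groups of a sex. P-values measure the spread between libraries. Alternatives were DESeq2 1.42.0, limma 3.58.1 on log2(FPKM + 1) or log2(FPKM + 0.1), edgeR's likelihood ratio test, library size scaling, other filters and limits, one fit over all groups, a replicate block, removal of the length trend (lowess span 0.3), and leaving out each library. Full statistics were given for called genes with the 2 smallest adjusted p in each direction and for Ndufs1, Ndufv1, Ndufa4 and Ndufa4l2 where tested; other genes were named after their values were seen. The single values of 1 member are not reported here. The main edgeR fit was tested on simulated data for the genotypes under CIH in both sexes, WT males under CIH and the male interaction. The other comparisons and the alternatives were not simulated. All libraries entered the values given unless said otherwise.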

Additional observations from a re-analysis of the deposited data

Results flagged for a closer look

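In groups of 4 or 5 libraries, the levels of the genes given in full were examined for a library apart from the others by Dixon's ratio of gap to range at the 95% level; 3 of 60 groups had one, and chance gives about 1 in 20. Ndufv1 was at 45.9 CPM in the library labelled F 5XFAD NX 4, against 53.5 to 54.9 CPM in the other 4. Ndufa4 was at 68.1 CPM in M WT NX 4, against 49.1 to 51.5 CPM, and that library was the highest of its group for 29 of 39 complex I genes. Ndufab1 was at 23.3 CPM in M 5XFAD CIH 2, against 36.6 to 40.4 CPM, and that library was the lowest of its group for 31 of 39. The ranks were counted in the complex I genes only, and what sets these libraries apart was not tested.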

How the results depend on the processing

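For WT NX against 5XFAD NX in females (0 genes, median 0.24), the likelihood ratio test and no filter on low counts gave 1 each, DESeq2 2 and all groups in one fit 4. The median was 0.05 with library size, 0.05 with the length trend taken out, 0.04 and 0.05 with limma, and 0.13 with the replicate block. In males (1 gene, median 0.34), no filter and at least 10 counts in every sample gave 2 each, the likelihood ratio test and DESeq2 4 each, all groups in one fit 5 and the length trend taken out 6. The male median was 0.10 with library size. The shares of all genes called in these fits are given with the results above, and those of males were near or above the shares of the members. Under CIH in females (29 genes, median 0.57), the limit on log2FC gave 2 genes, and the median was 0.37 with library size, 0.34 and 0.36 with limma on log2(FPKM + 1) and log2(FPKM + 0.1), and 0.25 with the length trend taken out; in males (1.19) it was 0.79 and 0.68 with library size and the length trend. For WT males under CIH (25 called, median -0.50), the limit on log2FC and one fit over all groups gave 0 and the length trend 14 genes with a median of -0.18. The male interaction (0) gave 10 with DESeq2 and 20 without a filter. With the length trend taken out, the median was 0.08 in place of 0.18 in 5XFAD females under CIH. For the female interaction it was then 0.15 in place of 0.24. The cause was not tested.

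The following counts add calls in both directions. Leaving out each library gave 0 to 22 genes for females under NX, 26 to 34 under CIH, 1 to 8 and 34 to 35 in males, 21 to 27 for WT males, 0 to 6 for the male interaction (6 without M 5XFAD NX 1) and 0 otherwise. Medians were 0.17 to 0.38, 0.48 to 0.62, 0.21 to 0.50, 0.99 to 1.29, -0.59 to -0.42 and 0.58 to 0.97 in that order, -0.13 to -0.02 for WT females, 0.06 to 0.26 and 0.09 to 0.39 for 5XFAD females and males, and 0.13 to 0.32 for the female interaction. Same-numbered libraries correlated at -0.494 to 0.349, which cannot show whether they share more than a number. With the replicate block, females under CIH gave 32 genes, males 34 and WT males 23 lower (26.5%, 24.1% and 12.9% of all genes). The call of Ndufab1 in WT males was then lost (adjusted p = 0.0655, edgeR).

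Of 39 fold changes of the genes named by rule, 12 were called. Leaving out 1 library ended the call of Ndufab1 in WT males in 7 fits and that of Ndufa4 in females under CIH in 1. One fit over all groups ended 6 of the 12 calls (Ndufa4 in females and Ndufv1 in males under CIH, and all 4 in WT males). Of the 12 called values, 2 turned: Ndufa4 in females under CIH (0.29) to -0.19 with the length trend taken out, where it was called lower, and Ndufv1 in males under CIH (0.35) to -0.034 with library size. Ndufa4 in females under CIH was also not called with library size (0.10) or with limma (0.09 with both pseudocounts), nor Ndufv1 in males under CIH with the length trend taken out (0.18), nor Ndufab1 in WT males with no filter (0.31), with limma on log2(FPKM + 1) (0.23) or with the length trend taken out (0.13).

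Of the 27 values not called, 14 changed sign in at least 1 fit. With library size, Ndufv1 and Ndufa4 turned to -0.13 and -0.14 in females under NX, Ndufs1 and Ndufv1 to -0.044 and -0.064 in females under CIH, and Ndufs1, Ndufv1 and Ndufa4 to -0.050, -0.12 and -0.14 in males under NX. With limma on log2(FPKM + 1) and log2(FPKM + 0.1) respectively, Ndufv1 turned to -0.13 and -0.13 and Ndufa4 to -0.13 and -0.13 in females under NX, Ndufs1 to -0.043 and -0.045 and Ndufv1 to -0.065 and -0.067 in females under CIH, and Ndufa4 to -0.000143 and -0.00227 in males under NX. With the length trend taken out, Ndufs1 turned to 0.00998 and Ndufa4 to -0.30 in females under NX, Ndufa4 to -0.035 in 5XFAD females, Ndufs1 to 0.11 in males under CIH, Ndufs1 and Ndufv1 to -0.079 and 0.040 in WT males, and Ndufs1 to 0.013 in the male interaction. With the replicate block, Ndufa4 turned to -0.036 in females under NX. Leaving out 1 library gave -0.041 to 0.12 for Ndufa4 in females under NX, -0.0093 to 0.21 for Ndufv1 and -0.058 to 0.24 for Ndufa4 in males under NX, and -0.017 to 0.21 for Ndufv1 in 5XFAD males.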

Other observations

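The male table lists no Ndufb1 but a gene Ndufb1-ps, which the symbol rule left out and which RefSeq (GRCm38.p6) gives as another name of Ndufb1. It was at 19.5, 25.4, 13.5, 30.9 and 23.1 CPM in male WT NX, at 16.8, 10.9, 13, 13.9 and 16.1 CPM in WT CIH, at 46.6, 40.3, 52.3, 20.4 and 22.5 CPM in 5XFAD NX and at 29.5, 31.2, 40.7, 50.1 and 92.8 CPM in 5XFAD CIH. Under CIH every 5XFAD library was above every WT library (log2FC 1.79 ± 0.270, adjusted p = 8.5e-05, edgeR), and WT CIH was lower than WT NX with overlapping libraries (-0.66 ± 0.190, adjusted p = 0.0164). In females, Ndufb1 was higher in 5XFAD than in WT under CIH (0.97 ± 0.257, adjusted p = 0.00651). Reads of a gene and a near-identical copy may be split between them in the counting, so these values are uncertain.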
